A study of Mus musculus with 4 samples.

Results

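Hdc encodes histidine decarboxylase, the enzyme that makes histamine from histidine, and Fcer1g encodes the Fc receptor gamma chain, a short signalling partner of several activating receptors. They were taken as every probe that the array's gene table assigns to either symbol, which gave 1 probe for each gene (ILMN_2965903 for Hdc and ILMN_2748875 for Fcer1g), 2 of 25697 probes and 2 of 16590 named genes. Both genes had been picked because their signal differed between the arrays of vitamin C iTreg and conventional iTreg, so that difference is given as a description. Each value comes from 1 probe on 1 array, and no second probe of either gene was there to compare it with.

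Mouse CD4 T cells were profiled on Illumina bead arrays, with 1 array for each of 4 groups and no replicate, so no test between groups was possible. All cells came from male Foxp3-GFP transgenic mice (B6.Cg-Foxp3tm2Tch/J), in which green fluorescent protein marks cells that transcribe Foxp3. Vitamin C iTreg were grown from sorted naive cells. They received 1 µg/ml each of anti-CD3 and anti-CD28, 15 ng/ml of recombinant IL-2, 10 ng/ml of recombinant TGF-beta and 10 µg/ml of vitamin C. Conventional iTreg had the same culture without vitamin C. Both cultures ran for 5 to 6 days per the sample labels and 5 days per the series text, and a second sort kept the cells positive for both GFP and CD25. Natural Treg (CD4-positive, CD8-negative, GFP-positive) and naive CD4 cells (CD4-positive, CD8-negative, GFP-negative, CD44 low) were sorted straight from lymph node and spleen. The labels do not say how many mice were used or whether cells of several mice were pooled. No array held cells stimulated without TGF-beta, so stimulation and Treg induction cannot be told apart when either iTreg array is set against naive CD4.

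Histamine is best known as a product of mast cells and basophils, which store it in granules. Hdc is the only enzyme known to make it in mammals, and histamine is cleared by the methyltransferase Hnmt and by the diamine oxidase Aoc1. The Fc receptor gamma chain carries an immunoreceptor tyrosine-based activation motif (ITAM). It brings the high-affinity IgE receptor, several IgG receptors and some lectin and NK cell receptors to the surface and passes their signal to the kinase Syk. It belongs to the same small protein family as Cd247, the zeta chain of the T cell receptor complex, which signals through the related kinase Zap70.

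The promoters of both genes are shown because both transcripts were higher on the same array. Each is the run of 250 bases before the annotated start in RefSeq (GRCm38.p6), minus strand, at chr2:126618679-126618928 for Hdc and at chr1:171234350-171234599 for Fcer1g, 5′ to 3′. Capitals mark the motifs found.
Hdc: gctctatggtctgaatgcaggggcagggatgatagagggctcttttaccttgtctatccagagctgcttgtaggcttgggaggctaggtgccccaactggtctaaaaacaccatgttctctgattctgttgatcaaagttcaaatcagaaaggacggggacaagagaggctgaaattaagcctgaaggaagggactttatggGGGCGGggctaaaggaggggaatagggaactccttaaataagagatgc
Fcer1g: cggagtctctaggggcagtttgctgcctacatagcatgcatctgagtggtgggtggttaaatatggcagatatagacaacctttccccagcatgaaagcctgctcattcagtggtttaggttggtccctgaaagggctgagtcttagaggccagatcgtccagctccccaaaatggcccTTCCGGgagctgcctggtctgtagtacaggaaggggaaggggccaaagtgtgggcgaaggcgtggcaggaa

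Neither window was rich in CpG. Hdc had 2 CpG sites at a GC content of 48.8%, and Fcer1g had 5 at 54.8%, against medians of 6 sites and 52.4% over 32851 promoter windows of this length. Motifs were searched on both strands as exact letters. They were TATAAA for the TATA box, GGGCGG for the GC box, CCAAT for the element of that name, CACGTG for the E-box, TGACTCA for AP-1 and TGACGTCA for CREB. AGATAA was used for GATA factors, CCGGAA for ETS factors, TGTGGT for RUNX factors and TTCNNNGAA for STAT factors. Hdc held 1 match, the GC box at 48 to 43 bases before the start, which 32.7% of all windows also held. Fcer1g held 1 match, the ETS letters on the opposite strand at 71 to 66 bases before the start, which 12.0% of all windows held. No motif of this set was found in both windows, and the 2 matches are letters in a window and nothing more.

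The Hdc signal was high on 1 array and low on the other 3. The deposited intensity, a linear brightness, was 798 on vitamin C iTreg, against 207 on conventional iTreg, 197 on natural Treg and 245 on naive CD4. All 4 values had a detection p-value of 0, which means that none of the negative control probes, 798 of them by the step size of the p-values, was as bright as Hdc. Hdc was thus above background everywhere, and vitamin C iTreg was the only array on which it stood far above it. The mean of the negative controls and their SD across probes were inferred from the detection p-values. In units of that SD, Hdc lay 33.4 above that mean on vitamin C iTreg and 5.35 above on conventional iTreg. On natural Treg it lay 5.16 above and on naive CD4 7.67.

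The Fcer1g signal had the same high array and was weaker on all 4. Its intensity was 451 on vitamin C iTreg, 184 on conventional iTreg, 134 on natural Treg and 168 on naive CD4. The detection p-value was 0 on vitamin C iTreg and 0.00501 on conventional iTreg, where 4 negative controls were as bright or brighter. It was 0.0890 on natural Treg (71 controls) and 0.0138 on naive CD4 (11 controls). At the detection limit used here, a p-value under 0.01, Fcer1g was therefore detected on both iTreg arrays and on neither array of cells sorted directly. It stood 16.2 SD above the negative control mean on vitamin C iTreg and 4.06 SD above on conventional iTreg, with 1.49 SD on natural Treg and 3.33 SD on naive CD4.

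**Figure D1:**
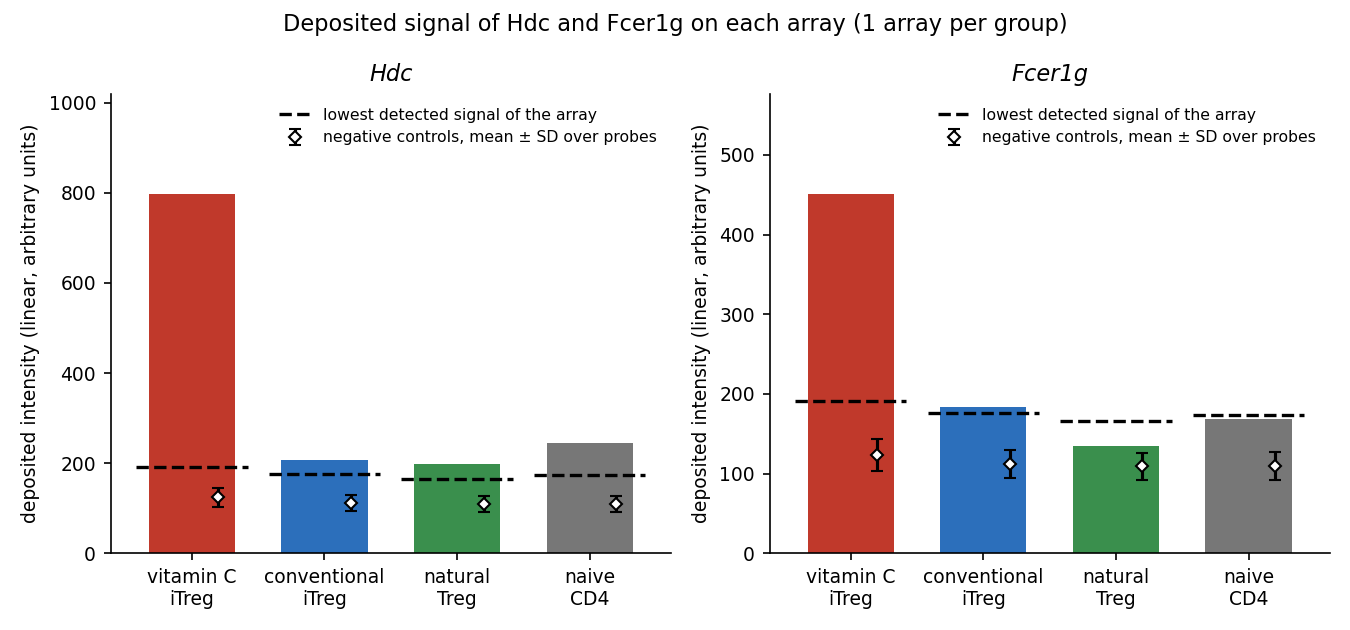
Deposited linear intensity (y axis, arbitrary units) of Hdc (left) and Fcer1g (right) on each of the 4 arrays, 1 bar per array. The dashed line is the lowest detected intensity of that array. The diamond with bars is the mean ± SD of its negative control probes, inferred from the detection p-values. The vitamin C iTreg bars, at 798 and 451, stand clear of the dashed line at 191, while the conventional iTreg bars, at 207 and 184, lie just over theirs at 176.

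On conventional iTreg both genes sat close to the detection limit. The dimmest detected probe of that array had an intensity of 176. Hdc was 30.7 units brighter than that and Fcer1g 7.91 units brighter, while the SD of the negative controls there was 17.7 units. Fcer1g on conventional iTreg was thus within 1 such SD of the limit, and Hdc was not. On vitamin C iTreg the limit was 191, and Hdc was 606 units and Fcer1g 259 units brighter, with a negative control SD of 20.2 units. On natural Treg Hdc was 31.7 units over the limit and the Fcer1g intensity differed from it by -31.2 units. On naive CD4 Hdc was 71.7 units over the limit and Fcer1g differed from it by -5.27 units.

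For comparison between arrays the intensities were background-corrected, given an offset of 16, quantile-normalized and put on a log2 scale. The normalized log2 level of Hdc was then 9.23 on vitamin C iTreg, 6.60 on conventional iTreg, 6.86 on natural Treg and 7.56 on naive CD4. Fcer1g had 8.20 on vitamin C iTreg, 6.29 on conventional iTreg, 5.53 on natural Treg and 6.52 on naive CD4. The lowest detected log2 level was 6.19 on vitamin C iTreg, 6.16 on conventional iTreg, 6.31 on natural Treg and 6.65 on naive CD4. The normalization thus placed the same closeness to background about as high on the first 3 arrays and higher on naive CD4, so values near background read higher there. Below vitamin C iTreg, naive CD4 came next for Hdc, and natural Treg, which did not detect it, was lowest for Fcer1g, in intensity and under each of the 4 normalizations compared. The other places in the order were not settled. Hdc was brighter on conventional iTreg than on natural Treg in intensity (207 against 197) and below it in normalized log2 level (6.60 against 6.86). Fcer1g was brighter on conventional iTreg than on naive CD4 in intensity (184 against 168) and below it in normalized log2 level (6.29 against 6.52). With median centring in place of quantile normalization, Fcer1g was at 6.37 on conventional iTreg and 6.36 on naive CD4.

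Vitamin C iTreg were set against conventional iTreg to see what vitamin C in the culture medium went with. Hdc was 2.63 log2 units higher on vitamin C iTreg, a 6.21-fold difference, and Fcer1g 1.91 log2 units higher, a 3.76-fold difference. These are the values that chose the genes. Among the 7756 genes compared, 73 (0.941%) were at least 2-fold higher on vitamin C iTreg and 63 (0.812%) at least 2-fold lower. Without background correction these counts were 34 and 20. Among the 7394 genes detected on both iTreg arrays, the Hdc difference ranked 1 and the Fcer1g difference 8 from the top. The middle 90% of those genes, between the 5th and 95th percentile, lay from -0.46 to 0.43 log2 units.

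Genes dim on conventional iTreg reached further above 0 than genes at large, and Hdc and Fcer1g were both dim there. Of the 1501 compared genes whose conventional iTreg log2 level was at or below that of Hdc plus 1, 42 (2.8%) were at least 2-fold higher on vitamin C iTreg and 9 (0.6%) at least 2-fold lower. At or below the Fcer1g level plus 1, the counts were 38 (3.08%) higher and 3 (0.243%) lower of 1234 genes. A limit on the conventional level leaves a dim gene little room to be 2-fold lower on vitamin C iTreg before it reaches the detection limit. The counts in the 2 directions are therefore not on an equal footing. Among the 1144 dim genes of the Hdc range detected on both arrays, the 95th percentile of the difference was 0.80. It was 0.43 for all genes detected on both. The 5th percentiles were close, at -0.49 for the dim genes and -0.46 for all.

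**Figure D2:**
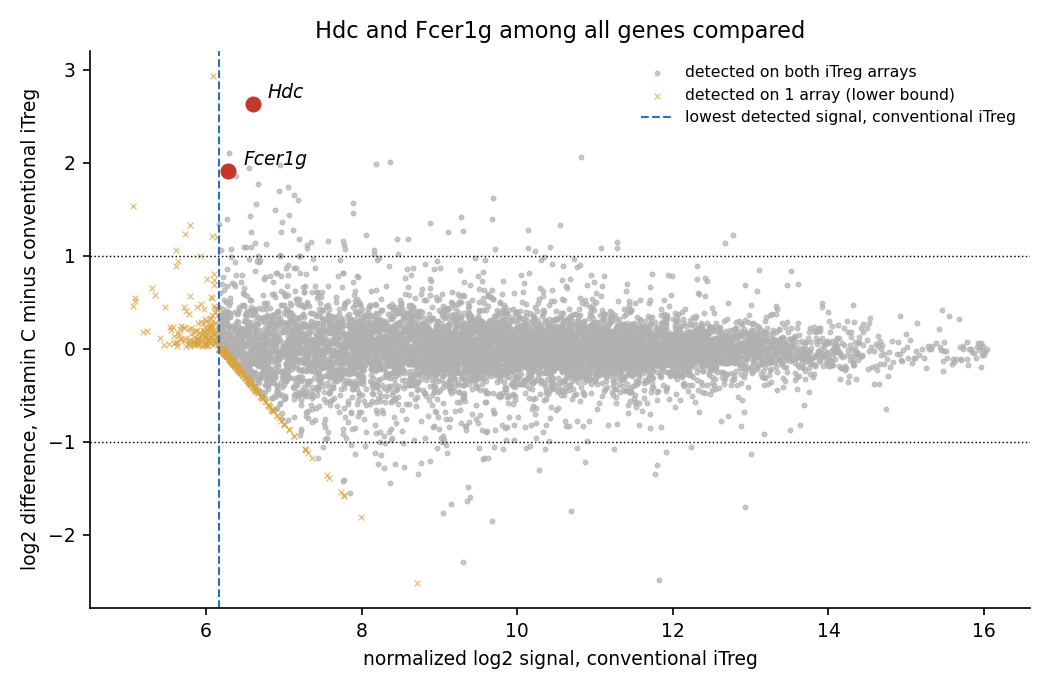
Log2 difference of vitamin C iTreg minus conventional iTreg (y axis) against the normalized log2 level on conventional iTreg (x axis) for the 7756 genes compared, with dotted lines at 2-fold and a dashed line at the lowest detected level of conventional iTreg, 6.16. Hdc (6.60, 2.63) and Fcer1g (6.29, 1.91), in red, lie at the upper left, next to the dashed line. Crosses are lower bounds for genes that 1 of the 2 arrays did not detect.

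The size of the fold depended on how background was handled, since the background made up much of the conventional iTreg signal. The plain ratio of the deposited intensities was 3.86 for Hdc and 2.45 for Fcer1g. In the authors' deposited log2 values, which have no such correction, Hdc had 9.44 on vitamin C iTreg and 7.60 on conventional iTreg, a difference of 1.84, and Fcer1g had 8.60 and 7.45, a difference of 1.15. After plain subtraction of the negative control mean, a setting added after the data were seen, 674 units of Hdc were left on vitamin C iTreg and 94.7 on conventional iTreg, a ratio of 7.12. For Fcer1g 327 and 71.8 units were left, a ratio of 4.55. Moving each background by 2 SD of the negative controls, in opposite directions on the 2 arrays, gave ratios from 4.87 to 12.0 for Hdc and from 2.67 to 10.1 for Fcer1g. The SD spans different probes of 1 array and is not a replicate error, and the deposited tables used here hold no bead-level error. Both genes were at least 2-fold higher on vitamin C iTreg in all 10 settings plotted for the vitamin C difference. These settings are not independent checks. Each gene has 1 probe, detected on both arrays, so the detection limit, the detection filter and probe averaging could not change its value. The authors' values repeat those without background correction. The spread over settings is that of processing the same 2 arrays, and it sets no limits on the fold between cultures.

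**Figure D3:**
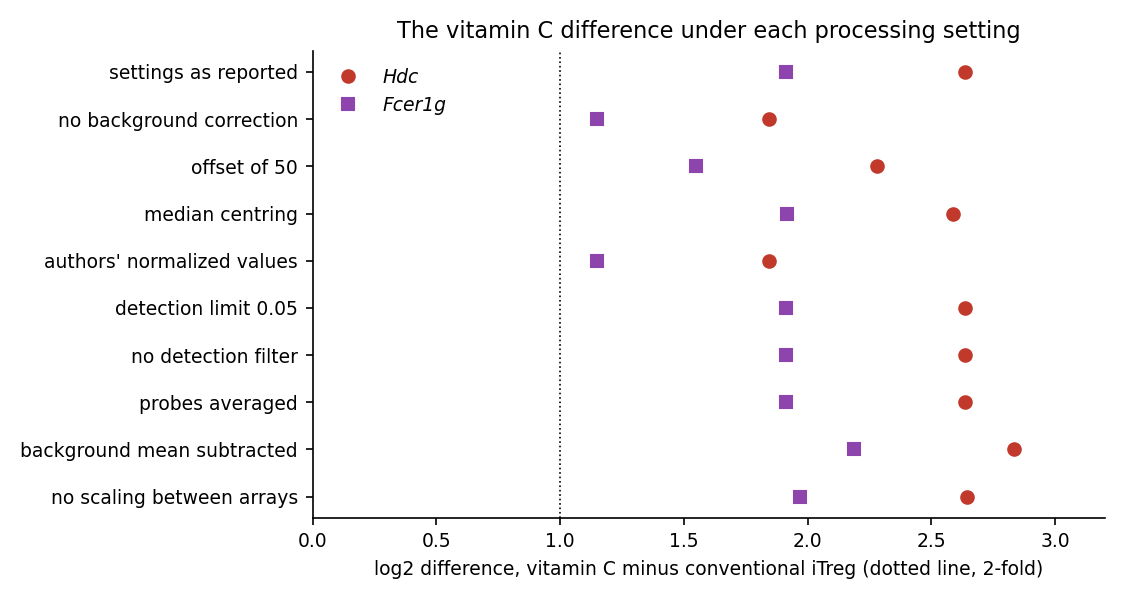
Log2 difference of vitamin C iTreg minus conventional iTreg (x axis) for Hdc (circles) and Fcer1g (squares) under each of 10 processing settings (y axis), with a dotted line at 2-fold. Hdc runs from 1.84 without background correction to 2.83 with the background mean subtracted, and Fcer1g from 1.15 to 2.19 under the same settings. The detection and probe averaging settings repeat the value as reported, and the authors' values repeat those without background correction.

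Set against the cells sorted directly, vitamin C iTreg was again the higher array for both genes. These comparisons share the vitamin C iTreg array with the one above, so they do not stand apart from it. Hdc was 2.38 log2 units (5.20-fold) higher on vitamin C iTreg than on natural Treg and 1.67 (3.18-fold) higher than on naive CD4. Fcer1g was not detected on either of those, so its differences are lower bounds, at least 3.70-fold over natural Treg and at least 2.94-fold over naive CD4. Such differences were common between cultured and directly sorted cells. Of 8034 genes, 11.7% were at least 2-fold higher on vitamin C iTreg than on natural Treg, and 13.8% of 7945 were so against naive CD4. Without background correction the differences over natural Treg were 3.27-fold for Hdc and at least 2.20-fold for Fcer1g, and the Fcer1g bound against naive CD4 fell under 2-fold, to 1.98-fold.

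Conventional iTreg did not share the high level. Hdc differed by -0.96 log2 units between conventional iTreg and naive CD4, where 14.7% of 7963 genes were at least 2-fold lower, and by -0.26 when conventional iTreg was set against natural Treg, where 12% of 8031 genes were at least 2-fold lower. Natural Treg differed from naive CD4 by -0.71 in Hdc, where 2.03% of 7582 genes lay 2-fold or more below 0 and 6.03% as far above it. None of these 3 differences reached 2-fold. For Fcer1g, the detected level on conventional iTreg was so near the limit that its bound was 0 against both natural Treg and naive CD4. The undetected natural Treg value was the lower one in intensity (184 on conventional iTreg against 134) and in log2 level (6.29 against 5.53), and the bound was 0.12 with median centring and 0.46 at a detection limit of 0.05. Against naive CD4 the direction was not settled. Natural Treg and naive CD4 were not compared for Fcer1g, which neither array detected.

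The other genes of histamine handling were mostly not detected. Of 17 listed besides Hdc, 15 had a probe and 2 were detected by the probe used on both iTreg arrays. One was Aoc1, the diamine oxidase that breaks histamine down, and the other Aldh2, an aldehyde dehydrogenase that can act after it. Aoc1 had an intensity of 454 on vitamin C iTreg, 240 on conventional iTreg, 134 on natural Treg and 141 on naive CD4, and was detected on both iTreg arrays only. The Aoc1 log2 difference was 1.25 between vitamin C iTreg and conventional iTreg. In this list Hdc, for the synthesis of histamine, and Aoc1 alone among the genes for its breakdown were thus above 2-fold. Without background correction the Aoc1 difference was 0.82, under 2-fold. Aldh2 differed by -0.22.

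Several genes for storing, clearing or sensing histamine were not detected on any array. The vesicular amine transporters Slc18a1 and Slc18a2, which load amines into granules, the methyltransferase Hnmt, and the receptors Hrh1, Hrh3 and Hrh4 had no detected probe on any array. Hrh2, the histamine receptor that raises cyclic AMP, had 3 probes that did not go together. The Hrh2 probe of highest mean log2 level was not detected on vitamin C iTreg (intensity 178) or conventional iTreg (170). It was detected on natural Treg (214) and naive CD4 (249). A second Hrh2 probe was detected on vitamin C iTreg alone (201, against 146 on conventional iTreg), and the third on no array.

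Few of the decarboxylases related to Hdc by their chemistry, or of the genes listed with them, could be compared. Hdc, Ddc, the glutamate decarboxylases and Csad use pyridoxal phosphate and share a fold, and Odc1, which makes putrescine, uses the same cofactor in another fold. The list also held Azin1, Azin2 and Pdxk, which are not decarboxylases. Of 8 genes with a probe in that list, 2 were compared, Csad at -0.12 log2 units and Odc1 at -0.19 between vitamin C iTreg and conventional iTreg. Ddc, the aromatic amino acid decarboxylase, had an intensity of 186 on vitamin C iTreg, where its detection p-value of 0.0113 just missed the limit, and 128 on conventional iTreg, with a p-value of 0.160. Its log2 levels there, 6.11 and 5.20, ran in the same direction as those of Hdc but were both undetected, so no difference was counted. Gad1, Gad2, Azin1, Azin2 and the vitamin B6 kinase gene Pdxk had no detected probe on any array.

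Of 24 listed receptors of the gamma chain and related genes, 18 had a probe, and 16 of those were detected on neither iTreg array. The 2 that were compared were Il3ra, a subunit of the IL-3 receptor (-0.11), and Fcmr (-0.80). Fcmr binds IgM and is not an established partner of the gamma chain. The high-affinity IgE receptor chains Fcer1a and Ms4a2, the IgG receptors Fcgr1 and Fcgr4, and the NK cell receptor Ncr1 had no detected probe on any array. Fcgr3, a low-affinity IgG receptor, had an intensity of 106 on vitamin C iTreg, against 252 on naive CD4, the only array that detected it.

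The zeta chain gene Cd247, the relative of Fcer1g in the T cell receptor complex, had the same signal on both iTreg arrays and was lower on both than in cells sorted directly. Its brightest probe had an intensity of 608 on vitamin C iTreg, 607 on conventional iTreg, 1948 on natural Treg and 3288 on naive CD4. The Cd247 log2 difference was -0.07 between vitamin C iTreg and conventional iTreg. Against naive CD4 it was -3.01 for vitamin C iTreg and -2.94 for conventional iTreg. Both other Cd247 probes were lower on the iTreg arrays too, with 389 and 227 on vitamin C iTreg, 415 and 232 on conventional iTreg, and 1137 and 522 on naive CD4. The low Cd247 signal was thus on both iTreg arrays, and the higher Fcer1g signal on 1 of them.

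The remaining adaptor chains were near 0 between the iTreg arrays. The T cell receptor chains Cd3d (0.02), Cd3e (-0.08) and Cd3g (-0.05) and the adaptor Hcst (-0.11), which couples the NKG2D receptor to phosphoinositide signalling, were all close to 0. Tyrobp, the ITAM adaptor of myeloid and NK cells also called DAP12, had no detected probe on any array. Of 8 adaptor genes besides Fcer1g, 5 were compared and none reached 2-fold, with a median of -0.07, against a median of -0.01 for all 7756 genes.

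Genes that act after ITAM phosphorylation were near 0 too. Of 21 listed, 16 had a probe, 13 were compared and none reached 2-fold, with 4 above and 9 below 0 and a median of -0.11. The genes that differed most were Btk (-0.31), Lcp2 (0.24), Grap2 (0.20), Zap70 (-0.19), Vav1 (-0.16) and Cbl (-0.15). Syk, the kinase that the gamma chain recruits, was detected on no array. Zap70 was bright on all of them, with an intensity of 11248 on vitamin C iTreg, 11534 on conventional iTreg, 11138 on natural Treg and 10733 on naive CD4.

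**Figure D4:**
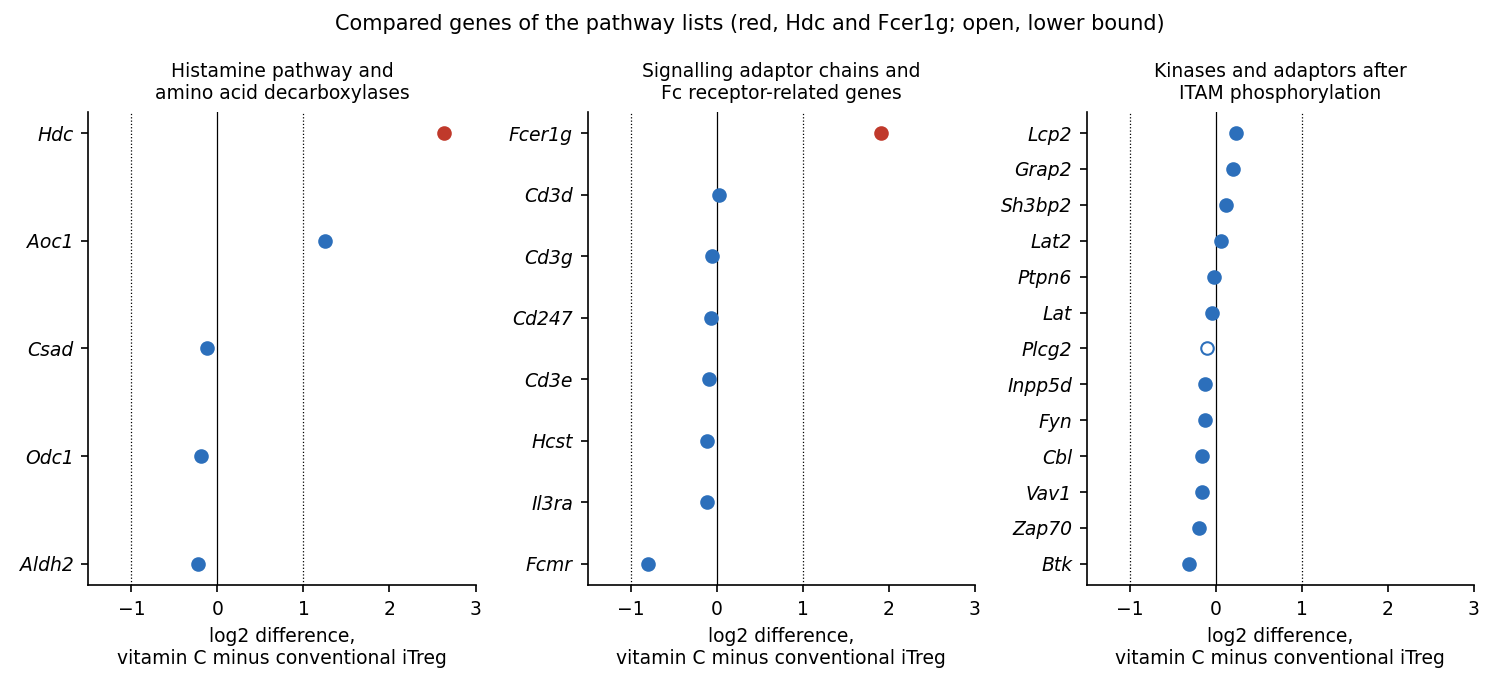
Log2 difference of vitamin C iTreg minus conventional iTreg (x axis) for each compared gene (y axis) of the histamine and decarboxylase lists (left), the adaptor and Fc receptor-related lists (middle) and the list of kinases and adaptors after ITAM phosphorylation (right), with dotted lines at 2-fold, Hdc and Fcer1g in red and a lower bound as an open circle. Besides Hdc (2.63) and Fcer1g (1.91), Aoc1 (1.25) is the only gene beyond 2-fold in these panels.

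Hdc and Fcer1g are both strongly expressed by mast cells and basophils, and Fcer1g by myeloid and NK cells, so markers of those cells were read on the same arrays. In bulk samples, fewer cells of a type and less RNA per cell cannot be told apart. Of 23 mast cell and basophil markers listed, Kit and Il1rl1 had no probe and could not be read. Of the 21 with a probe, 19 had no detected probe on any array. Among them were the mast cell proteases Cpa3, Mcpt4, Cma1 and Tpsb2, the basophil protease Mcpt8, both IgE receptor chains and the transcription factor Gata2. The other 2 were Gata1 (-0.10) and Csf1 (0.37), with intensities of 375 and 232 on natural Treg. A second Gata1 probe was detected on no array. The cells that gave the Gata1 and Csf1 signals were not identified. The summed signal above the negative control mean over the 21 was 380 on vitamin C iTreg, 333 on conventional iTreg, 522 on natural Treg and 205 on naive CD4. In this sum, and in those of the other marker lists, a gene below that mean counted as 0, so scatter around background adds to it. Gata1 and Csf1 were part of the sum, with intensities of 231 and 252 on vitamin C iTreg. Cpa3, one of the most abundant mast cell transcripts, had an intensity of 158 on vitamin C iTreg and 132 on conventional iTreg for its brightest probe, with detection p-values of 0.0752 and 0.137.

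Most myeloid markers and most NK and CD8 T cell markers were undetected as well, while some of the latter were bright. Of 22 monocyte, macrophage and neutrophil markers listed, 19 had a probe, and Csf1r, Cd68 and Ly6g had none. Of the 19, 3 were detected on the iTreg arrays, Cebpb (-0.0047), Cst3 (0.26) and Ctss (0.25). Which cells gave these signals was not tested. Lyz2, Itgam, Cd14, Adgre1, Tyrobp, Spi1, S100a8 and S100a9 were among the 14 with no detected probe on any array. The other 2 were detected on cells sorted directly alone, the lysozyme gene Lyz1 on natural Treg (intensity 400) and naive CD4 (273) and Fcgr3 on naive CD4 (252). The summed signal of the 19 above background was 25339 on vitamin C iTreg and 21527 on conventional iTreg, against 5196 on natural Treg and 3645 on naive CD4, and most of it on the iTreg arrays was Cebpb. Of 12 NK and CD8 T cell markers, 8 had no detected probe on any array, among them Cd8a, Gzma, Ncr1, Klrk1 and Eomes. The other 4 were detected on both iTreg arrays. Of those, 3 were lower on vitamin C iTreg, Nkg7 at -1.70, Klrd1 at -0.98 and Prf1 at -0.33, while Cd8b1 was higher (0.56). Prf1, which encodes perforin, had an intensity of 1942 on vitamin C iTreg, 2267 on conventional iTreg, 6570 on natural Treg and 10867 on naive CD4. A second, dimmer Prf1 probe was detected on conventional iTreg (204) and not on vitamin C iTreg (160). The summed signal of the 12 was 6973 on vitamin C iTreg and 12118 on conventional iTreg, against 10177 on natural Treg and 16243 on naive CD4. Of 8 dendritic cell markers, Siglech (0.27) and Batf3 (at most -1.09, a bound) were detected on an iTreg array, with a summed signal of 215 on vitamin C iTreg and 295 on conventional iTreg. None of 7 B cell markers with a probe was detected on either iTreg array. Of 6 platelet and erythroid markers with a probe, 1 was, Itga2b (a bound of -0.01).

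**Figure D5:**
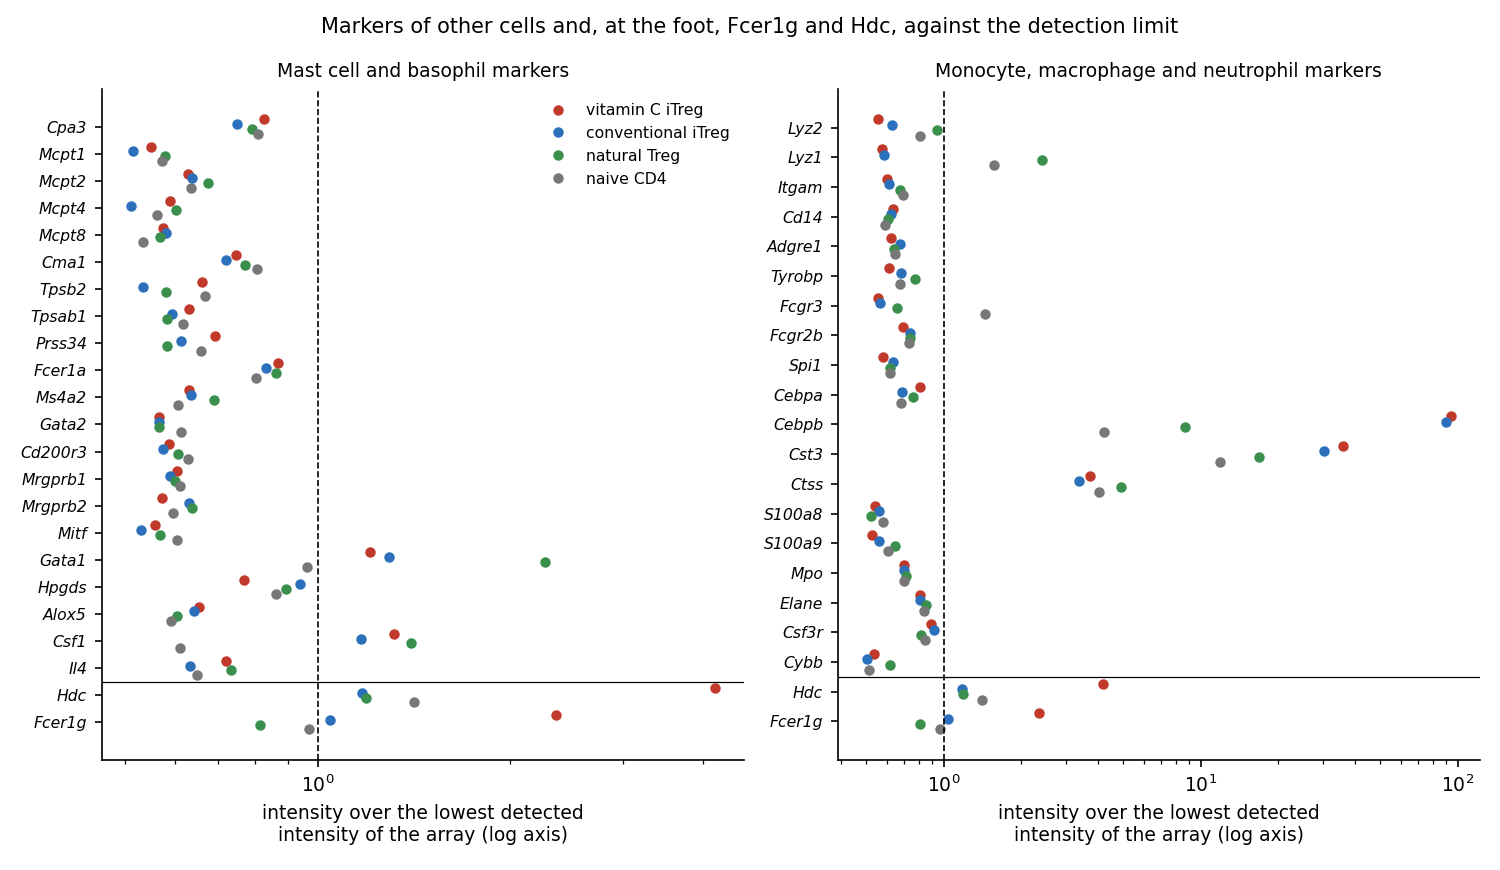
Intensity divided by the lowest detected intensity of the array (x axis, log scale, dashed line at 1) for markers of mast cells and basophils (left) and of monocytes, macrophages and neutrophils (right), by gene (y axis), with 1 point per array and Hdc and Fcer1g at the foot of each panel. Hdc reaches 4.17 and Fcer1g 2.36 on vitamin C iTreg, while 19 of the 21 mast cell and basophil markers lie left of the dashed line on every array.

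The markers of the labelled cells were present. All 6 T cell markers with a probe were detected on all 4 arrays. Cd4 differed by 0.02 between vitamin C iTreg and conventional iTreg, Foxp3 by -0.21 and Il2ra by 0.06. Both iTreg groups had been gated on GFP and CD25, which these last 2 genes mark. Foxp3 and Il2ra were not detected on naive CD4, which had been gated as GFP-negative. The Foxp3 values are those of 1 of its 3 probes, and the other probes were detected on no array. Ikzf2 was detected on natural Treg alone.

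The profile over the 4 arrays was then compared between genes. Each gene's 4 normalized log2 levels were centred on their own mean, and likeness was the root mean square distance to the member's centred levels, over 7442 other named genes detected on vitamin C iTreg, with provisional gene models left out. Hdc and Fcer1g were 0.37 log2 units apart, the smallest distance for either. Both had been chosen for being high on vitamin C iTreg, which weighs most in this measure, and Fcer1g was undetected on natural Treg and naive CD4, so this distance is a description and supports nothing. After Fcer1g, the nearest to Hdc were Plekha6 (0.43), the pregnancy-specific glycoprotein gene Psg23 (0.45), the bile acid receptor gene Nr1h4 (0.51) and Grp, which encodes gastrin-releasing peptide (0.52). After Hdc, the nearest to Fcer1g were Il12a, the p35 chain of IL-12 (0.39), Plekha6 (0.40), Grp (0.40) and Psg23 (0.41). The measure rests on 4 arrays.

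Among the neighbours other than Hdc and Fcer1g, only Psg23 was detected on all 4 arrays. Psg23 had an intensity of 2557 on vitamin C iTreg, 1002 on conventional iTreg, 756 on natural Treg and 1069 on naive CD4, and its log2 difference between vitamin C iTreg and conventional iTreg was 1.40. Plekha6 (intensity 352 on vitamin C iTreg and 121 on conventional iTreg), Il12a (231 and 135), Nr1h4 (229 and 122) and Grp (227 and 122) were detected on vitamin C iTreg alone. Their shape over the other arrays is therefore that of background signal. Psg23, like Hdc, had its higher level on naive CD4 among the 3 arrays other than vitamin C iTreg.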

How the data were processed

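RNA from 4 groups of mouse CD4 T cells was measured on 1 Illumina array each, from 550 ng of total RNA per the labels' protocols. Per the file headers, the first deposited table gives each probe's intensity and its detection p-value on each array. The submitters' processing notes name GenomeStudio 2011.1, and any background subtraction in it was not given in the sources used here. In the second table, the authors' deposited log2 values equalled quantile-normalized log2 intensities within 5e-07. Probe sequences were not used here.

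The neqc function of limma 3.58.1 (R 4.3.3) normalized the intensities, with an offset of 16 and negative controls that it infers from detection p-values. Python 3.11.15 with pandas 2.3.3, numpy 2.4.6 and matplotlib 3.10.9 did the rest. Quantile normalization hides a shift of most genes in 1 direction, and the offset shrinks differences of dim genes. The array's gene table named 23978 of 25697 probes, and 23971 matched a RefSeq table (GRCm38.p6), which altered 8 symbols. Where a gene had several probes, the one of highest mean log2 level stood for it. A gene was compared when either array detected it (p-value under 0.01). An undetected value was raised to the array's lowest detected level if below it, giving a lower bound, or 0 where the bound pointed the other way. Differences are log2, first group minus second, and were counted from 2-fold.

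The members and lists were chosen with earlier results of these data known. Named genes were the 6 compared genes of each pathway list that differed most and the 5 genes nearest to each member. The number of arrays limits the precision, and no p-value between groups was computed. The steps were tested on simulated data, with changes given to genes drawn from all those detected on both iTreg arrays. That run was not restricted to genes near the detection limit, so it does not check the sizes given for Hdc and Fcer1g.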

Additional observations from a re-analysis of the deposited data

How the results depend on the processing

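Each result was recomputed under 7 alternatives, and 2 more, chosen after seeing the data, were applied to the vitamin C differences of Hdc and Fcer1g. A value was counted as moved when it changed by over 1.5-fold, a margin chosen here since there are no replicates. Of 179 recomputed values of 25 results, 164 stayed within that margin and none of those at 2-fold reversed. Without background correction, and equally with the authors' normalized values, the vitamin C iTreg over conventional iTreg difference was 1.84 for Hdc and 1.15 for Fcer1g. Against natural Treg it was 1.71 for Hdc and at least 1.14 for Fcer1g, and the gene counts were 34 higher and 20 lower. Without the detection filter 99 genes were lower, since all 16590 named genes were then compared. In that setting Fcer1g differed by 2.67 between vitamin C iTreg and natural Treg and by 0.76 between conventional iTreg and natural Treg, values that rest on an undetected level. Fcer1g between natural Treg and naive CD4 was -0.69 (a bound) at a detection limit of 0.05 and -0.99 without the filter. With median centring the median over all genes for natural Treg over naive CD4 was -0.10. Averaging probes changes nothing for a gene with 1 probe, and the detection settings change nothing for a gene detected on both arrays. The count of values within the margin thus includes values that could not move and values that repeat others. No paired analysis was possible because each group had 1 array. Signal over background limits the members on each array other than vitamin C iTreg.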

Other observations

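Between the cells sorted directly, 42 listed genes other than Treg markers were compared, and 7 were at least 2-fold higher on natural Treg than on naive CD4 and 3 at least 2-fold lower, where 6.03% and 2.03% of all 7582 genes were so. The largest difference was that of Klrd1, an NK cell receptor gene with an intensity of 119 on natural Treg, where it was not detected, and 1802 on naive CD4 (a bound of -4.56). Nkg7, a granule gene of cytotoxic cells, went the other way, with 1333 on natural Treg and 157 on naive CD4 (at least 3.81). The B cell receptor chain gene Cd79b had 970 on natural Treg and 249 on naive CD4 (2.37), and Fcmr had 1316 and 340 (2.22). Gata1 differed by at least 1.69 and Ddc, at 348 on natural Treg and 163 on naive CD4, by at least 1.54. The Gata1 value is that of 1 probe, and its second probe was detected on neither array (126 on natural Treg and 110 on naive CD4). Odc1, the first enzyme of polyamine synthesis, differed by 1.21 and Cebpb by 1.06. Fcgr3 had a bound of -1.30, and Grap2 differed by -1.15.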
